A study of Rattus norvegicus with 6 samples.

Results

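Fatty acid oxidation was described here by 9 genes, Cpt1a, Cpt2, Acadm, Acadl, Acadvl, Hadha, Hadhb, Ppara and Lpin1, picked by name from the 18930 rows of a table of raw read counts. All 9 had a row, and all 9 passed the filter on low counts, which left 11870 genes to test. The cells were NRK-52E, an established rat kidney epithelial line of wild-type (WT) genotype, and the comparison asks how their transcripts differ after streptozotocin (STZ), a sugar-linked nitrosourea that alkylates DNA. RNA came from 3 samples given vehicle (Control) and 3 samples given STZ at 10 mM for 24 h. No source used here says whether the 3 samples of a group were separate cultures, so p-values measure the spread between these samples, which may be technical. Totals were 10430924, 10902792 and 12737131 reads in Control replicates 1 to 3 and 13921413, 11658253 and 15191349 reads in STZ replicates 1 to 3, so that 1 read was worth between 0.0667 and 0.0943 CPM, the library-scaled level used throughout.

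Long-chain fatty acids are first joined to coenzyme A, then handed to carnitine so that they can cross the mitochondrial membranes, and are shortened inside by a repeating cycle of dehydrogenation, hydration, a second dehydrogenation and thiolysis. Enzymes of the cycle are specialised by chain length, with separate dehydrogenases for very long, long and medium chains. The proximal tubule of the kidney is known to draw much of its energy from this pathway, and the nuclear receptor encoded by Ppara is a known activator of its genes.

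The label kidney epithelial cell was checked against marker genes. Krt8, an epithelial keratin, was the most abundant of the 7 kidney epithelial markers with a row, and its log2 fold change was 0.48 (edgeR adjusted p = 1.82e-15). Krt18, the usual partner of Krt8, never exceeded 3 reads. Only reads with a single mapped position were counted, and whether this lowered the count of Krt18 was not tested. Cdh1, the epithelial cadherin, had 16 to 35 reads and fell with a log2 fold change of -0.69 (edgeR adjusted p = 0.0296), a call that held in 10 of 15 alternatives (-0.92 to -0.44 with each sample left out). The summed level of the kidney epithelial markers was 1107, 1181 and 1171 CPM in Control and 1600.0, 1617 and 1607 CPM in STZ, nearly all of it Krt8, so the higher sum is that of this gene and not of the class. Of the 9 proximal tubule markers with a row, Lrp2, Slc34a1, Slc5a2 and Slc2a2, which define that segment, never exceeded 7 reads. The summed level of these 9 markers was 62.8, 62.6 and 59.65 CPM in Control and 77.7, 84.4 and 89.5 CPM in STZ, and its most abundant gene, Ggt1, carried most of it and rose with 0.73 (edgeR adjusted p = 1.87e-13). Aqp1, the only other proximal tubule marker past the test, fell with a log2 fold change of -1.25 (edgeR adjusted p = 9.36e-09), without overlap of the groups. Fibroblast markers together were at 50.9, 47.3 and 52.6 CPM in Control and 43.7, 43.0 and 36.9 CPM in STZ. Both tested genes of that list fell, Pdgfrb with -0.33 (edgeR adjusted p = 0.00286) and Col1a1 with -0.27 (edgeR adjusted p = 0.00921), where Col1a1 did not pass without Control replicate 3 (-0.22, edgeR adjusted p = 0.0574) or without STZ replicate 3 (-0.13, edgeR adjusted p = 0.226). Endothelial markers together stayed at or under 1.13 CPM and leukocyte markers at or under 2.835 CPM in every sample. The part of these marker changes in the results on fatty acid oxidation was not tested, and in bulk RNA fewer cells of a type and less RNA per cell cannot be told apart.

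Of the 9 genes, 2 rose with STZ (Acadvl and Acadl), 2 fell (Lpin1 and Cpt1a) and 5 did not pass the test, where passing means an adjusted p under 0.05 in the quasi-likelihood test of edgeR, with p-values adjusted by Benjamini-Hochberg across the whole table. Over all 11870 genes that share was 50.9%, with 25.9% higher and 25.1% lower, so 4 of 9 is near the background and is no result about these genes as a group. None of the 9 had an absolute log2 fold change over 1, a size that 3.37% of all genes reached together with the adjusted p. The median log2 fold change of the 9 genes was 0.08, against -0.01 over all genes tested. Groups of samples did not overlap for 6 of the 9 genes, against 56.3% of all genes. The genes are described from the carnitine gate to the regulators.

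**Figure D1:**
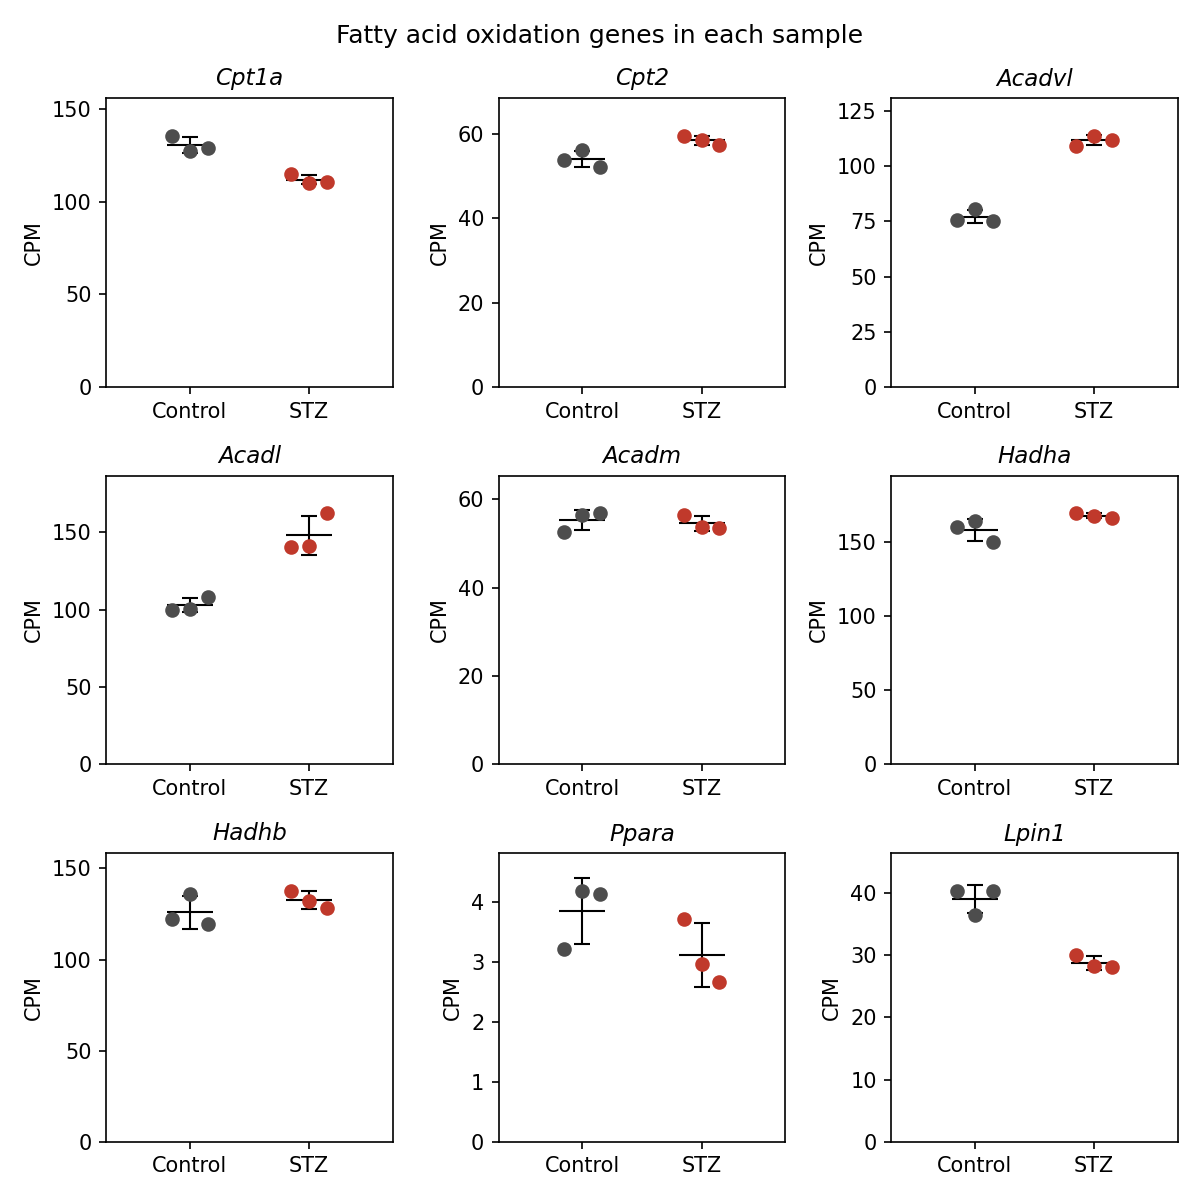
Level of each of the 9 genes in CPM (vertical axis starting at 0) in the 3 Control and 3 STZ samples. Points are samples, the horizontal mark is the group mean and the bar its SD. The STZ points lie above all Control points for Acadvl and Acadl and, by less, for Cpt2 and Hadha. They lie below all Control points for Lpin1 and Cpt1a.

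Cpt1a encodes the carnitine palmitoyltransferase of the outer mitochondrial membrane, the step at which malonyl-CoA restrains entry of fatty acids. Its level was 136, 127 and 129 CPM in Control replicates 1 to 3 and 115, 110.25 and 111 CPM in STZ replicates 1 to 3. Every STZ sample lay below every Control sample. The group means were 131 ± 4.49 CPM in Control (SD, n = 3) and 112 ± 2.63 CPM in STZ (SD, n = 3). Cpt1a fell, with a log2 fold change of -0.22 (95% interval -0.31 to -0.13; edgeR adjusted p = 6.04e-05). Of all genes tested, 56.0% had a smaller absolute log2 fold change.

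Cpt2 encodes the enzyme of the inner membrane that turns acylcarnitine back into acyl-CoA. It was at 53.7, 56.1 and 52.2 CPM in Control and at 59.5, 58.5 and 57.4 CPM in STZ. The STZ samples were all above the Control samples, but the gap was small. The log2 fold change of Cpt2 was 0.12 (95% interval 0.0029 to 0.23) and did not pass the test (edgeR adjusted p = 0.081). The log2 ratio of Cpt1a to Cpt2 counts, which does not depend on library scaling, was 1.34, 1.18 and 1.31 in Control and 0.95, 0.92 and 0.95 in STZ. All STZ ratios were below all Control ratios, by a mean of -0.34, and the exact two-sided permutation test gave p = 0.1, the smallest value that 3 samples against 3 allow.

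Acadvl encodes the very long-chain acyl-CoA dehydrogenase, which takes the first oxidation step on long chains at the inner membrane. Its level was 75.5, 80.8 and 75.4 CPM in Control and 109, 114 and 112 CPM in STZ. The lowest STZ sample was well above the highest Control sample. With means of 77.2 ± 3.05 CPM in Control (SD, n = 3) and 112 ± 2.31 CPM in STZ (SD, n = 3), Acadvl rose by a log2 fold change of 0.53 (95% interval 0.44 to 0.63; edgeR adjusted p = 1.27e-12). This was a rise of 44.7% and gave Acadvl the smallest p of the 9 genes, rank 425 of the 11870 tested.

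Promoter windows of RefSeq in the GRCr8 build, running from 250 bases before to 50 bases after the start of a gene, matched 8 of the 9 genes. Acadl, which also rose, had no matched window and was not searched for motifs. The window of Acadvl, at chr10:55236656-55236955 on the minus strand, is shown because Acadvl rose and because it was the only window of the 8 to hold the motif pair described next. Capitals mark matches to AGGTCA, the half-site that nuclear receptors such as PPAR bind, and to a pair of GGTCA in the same direction with 2 bases between them, searched on both strands.
Acadvl: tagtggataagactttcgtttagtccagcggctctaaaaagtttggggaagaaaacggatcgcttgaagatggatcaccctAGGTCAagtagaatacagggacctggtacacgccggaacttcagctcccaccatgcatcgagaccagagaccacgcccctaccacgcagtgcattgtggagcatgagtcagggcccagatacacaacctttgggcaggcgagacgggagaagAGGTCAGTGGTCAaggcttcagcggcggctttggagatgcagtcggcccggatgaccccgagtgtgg
The window of Acadvl held AGGTCA 2 times, starting at 169 and 17 bases before the gene start, and the second match overlaps the pair. Over all 33469 promoter windows of 300 bases, 16.2% held AGGTCA on either strand and 0.164% held the pair. The windows of Cpt1a, Cpt2, Acadm, Hadha, Ppara and Lpin1 held neither motif, and that of Hadhb held AGGTCA 1 time. The pair leaves out the first base of AGGTCA. In the Acadvl window its downstream copy follows a T, so AGGTCA repeated in full would not match. These matches describe letters in a window and were neither tested nor linked to binding.

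Acadl encodes the long-chain acyl-CoA dehydrogenase. It was at 100.02, 100.4 and 108 CPM in Control and at 140.3, 141 and 162 CPM in STZ. Every STZ sample was above every Control sample, and STZ replicate 3 was the highest. The means were 103 ± 4.68 CPM in Control (SD, n = 3) and 148 ± 12.4 CPM in STZ (SD, n = 3). Acadl rose by a log2 fold change of 0.52 (95% interval 0.42 to 0.63; edgeR adjusted p = 7.84e-12), a rise of 43.8%.

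Acadm encodes the medium-chain acyl-CoA dehydrogenase, which acts on the chains that the long-chain enzymes have shortened. Its level was 52.6, 56.5 and 56.8 CPM in Control and 56.5, 53.8 and 53.4 CPM in STZ. The groups overlapped. The log2 fold change of Acadm was -0.02 (95% interval -0.14 to 0.09; edgeR adjusted p = 0.784; -0.055 to -0.00016 with each sample left out), an interval that leaves out a rise of the size seen in Acadvl and Acadl. After these values had been seen, the dehydrogenases were set against each other within each sample, as a description with no test. The log2 ratio of Acadvl to Acadm counts was 0.52, 0.52 and 0.41 in Control and 0.95, 1.08 and 1.07 in STZ. That of Acadl to Acadm was 0.93, 0.83 and 0.93 in Control and 1.31, 1.39 and 1.602 in STZ. In both ratios all STZ samples were above all Control samples, by a mean of 0.55 for Acadvl and 0.54 for Acadl.

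**Figure D2:**
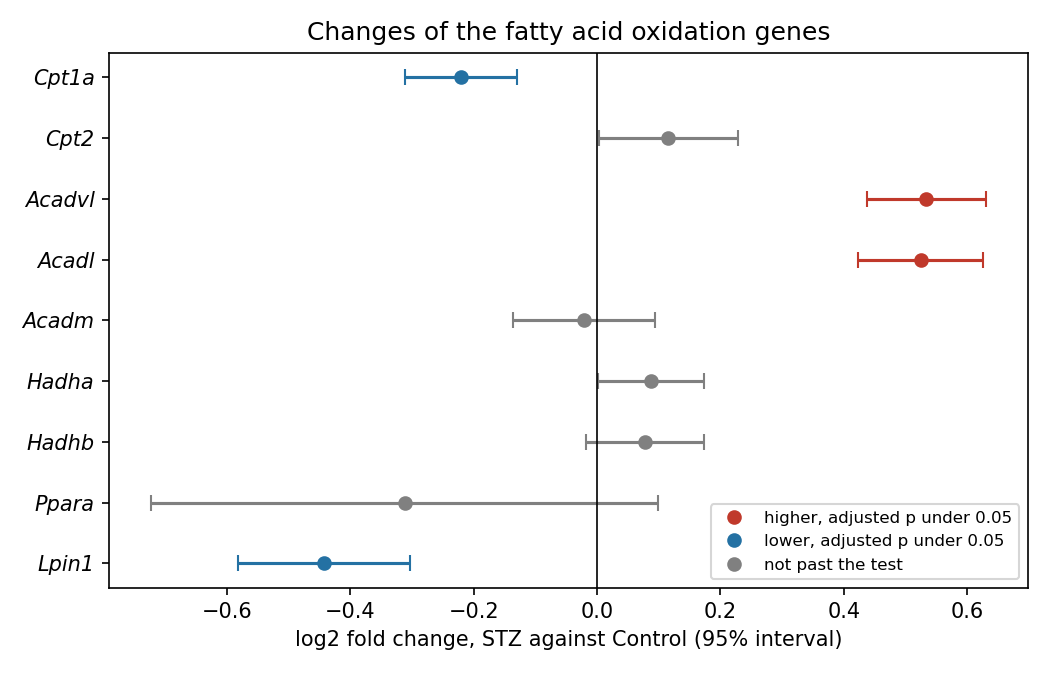
Log2 fold change of STZ against Control (horizontal axis) for each of the 9 genes, with its 95% interval from edgeR's quasi-likelihood fit. Acadvl at 0.53 and Acadl at 0.52 stand apart on the right, Lpin1 at -0.44 and Cpt1a at -0.22 lie on the left, and grey points did not pass the test.

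Hadha and Hadhb encode the alpha and beta subunits of the mitochondrial trifunctional protein, which carries the hydratase, the second dehydrogenase and the thiolase for long chains. The genes lie head to head on chromosome 6, and their RefSeq windows share 200 bases at chr6:31907551-31907750 (GRCr8), with 301 bases between the starts. The window of Hadha is printed on its plus strand, at chr6:31907551-31907850, with capitals marking the bases that the window of Hadhb also holds on the opposite strand.
Hadha: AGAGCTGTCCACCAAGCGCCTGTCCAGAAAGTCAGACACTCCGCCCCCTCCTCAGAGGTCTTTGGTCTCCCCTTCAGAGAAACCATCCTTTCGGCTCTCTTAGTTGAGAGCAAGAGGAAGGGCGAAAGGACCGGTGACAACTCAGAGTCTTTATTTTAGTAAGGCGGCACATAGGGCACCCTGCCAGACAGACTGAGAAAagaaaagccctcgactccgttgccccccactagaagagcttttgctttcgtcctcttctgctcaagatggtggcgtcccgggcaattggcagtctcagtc
Hadha was at 161, 164.5 and 150.3 CPM in Control and at 169.8, 168 and 167 CPM in STZ. All STZ samples of Hadha were above all Control samples, by little, and the log2 fold change of 0.09 (95% interval 0.0017 to 0.17) did not pass the test (edgeR adjusted p = 0.0829). Hadhb was at 122, 136 and 119 CPM in Control and at 138, 132 and 128 CPM in STZ. The groups of Hadhb overlapped, and its log2 fold change was 0.08 (95% interval -0.02 to 0.17; edgeR adjusted p = 0.173). Without Control replicate 2, the sample with the most Hadhb in its group, both genes passed, with log2 fold changes of 0.11 for Hadha (edgeR adjusted p = 0.0469, and 0.0469 to 0.387 over its alternatives) and 0.14 for Hadhb (edgeR adjusted p = 0.0257, and 0.0257 to 0.56 over its alternatives). Without Control replicate 3 the log2 fold changes were only 0.048 for Hadha and 0.038 for Hadhb. The log2 ratio of Hadha to Hadhb counts was 0.40, 0.27 and 0.33 in Control and 0.30, 0.35 and 0.38 in STZ. These ratios overlapped between the groups, and their mean difference was 0.01 (exact two-sided permutation p = 0.9).

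Ppara encodes the fatty acid receptor PPAR alpha and was the member with the fewest reads, 34 to 53 per sample. Its level was 3.21, 4.18 and 4.13 CPM in Control and 3.71, 2.95 and 2.67 CPM in STZ. The groups overlapped through Control replicate 1 and STZ replicate 1. The log2 fold change of -0.31 had a wide 95% interval, -0.72 to 0.10 (edgeR adjusted p = 0.204), so a difference was not detectable at this depth. With each sample left out in turn, the log2 fold change of Ppara ranged from -0.46 to -0.20. In the GRCr8 annotation the span of Ppara overlaps Cdpf1, and the strand setting of the counting was not given in the sources used here, so reads of such a pair may not be fully separated. The same holds for 6 of the 9 genes, whose spans each overlap at least 1 other annotated gene, mostly unnamed loci.

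Lpin1 encodes lipin 1, a phosphatidate phosphatase of glycerolipid synthesis that also acts in the nucleus as a coactivator with PPAR alpha. It was at 40.3, 36.5 and 40.3 CPM in Control and at 29.9, 28.2 and 28.0 CPM in STZ. Every STZ sample was below every Control sample. The means were 39.0 ± 2.23 CPM in Control (SD, n = 3) and 28.7 ± 1.05 CPM in STZ (SD, n = 3). Lpin1 fell, with a log2 fold change of -0.44 (95% interval -0.58 to -0.30; edgeR adjusted p = 7.94e-07), the largest fall of the 9 genes. Lpin2, a related phosphatase, also fell, with a log2 fold change of -0.21, and Lpin3 had 0.07 (0.015 to 0.14 with each sample left out) and did not pass the test; these lipins were named after their values were seen. Lpin1 made up 40.7%, 37.4% and 40.2% of lipin reads in Control and 35.3%, 33.9% and 35.3% in STZ, as shares of reads not corrected for transcript length. The share of Lpin1 was lower in every STZ sample, by a mean of -4.66 percentage points (exact two-sided permutation p = 0.1, the smallest possible here).

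The rest of the pathway was read from 11 lists that hold 130 further genes, of which 113 had a row and 93 were tested. Of these 93 genes, 24 rose and 28 fell, or 55.9% against 50.9% of all genes, with a median log2 fold change of -0.06. Only 3 passed both the adjusted p and the fold threshold, Pdk4, Angptl4 and Esrra, and all of them had few reads. Esrra passed both in only 8 of 15 alternatives. Of 59 genes checked for overlap, the 9 among them, 28 had a span that overlaps another annotated gene, so the doubt about separating reads holds for these too, such as Rxrb (Slc39a7), Stk11 (Cbarp), Prkag2 (Kmt2c), Acsl5 (Zdhhc6) and Acaa1a (Myd88).

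**Figure D3:**
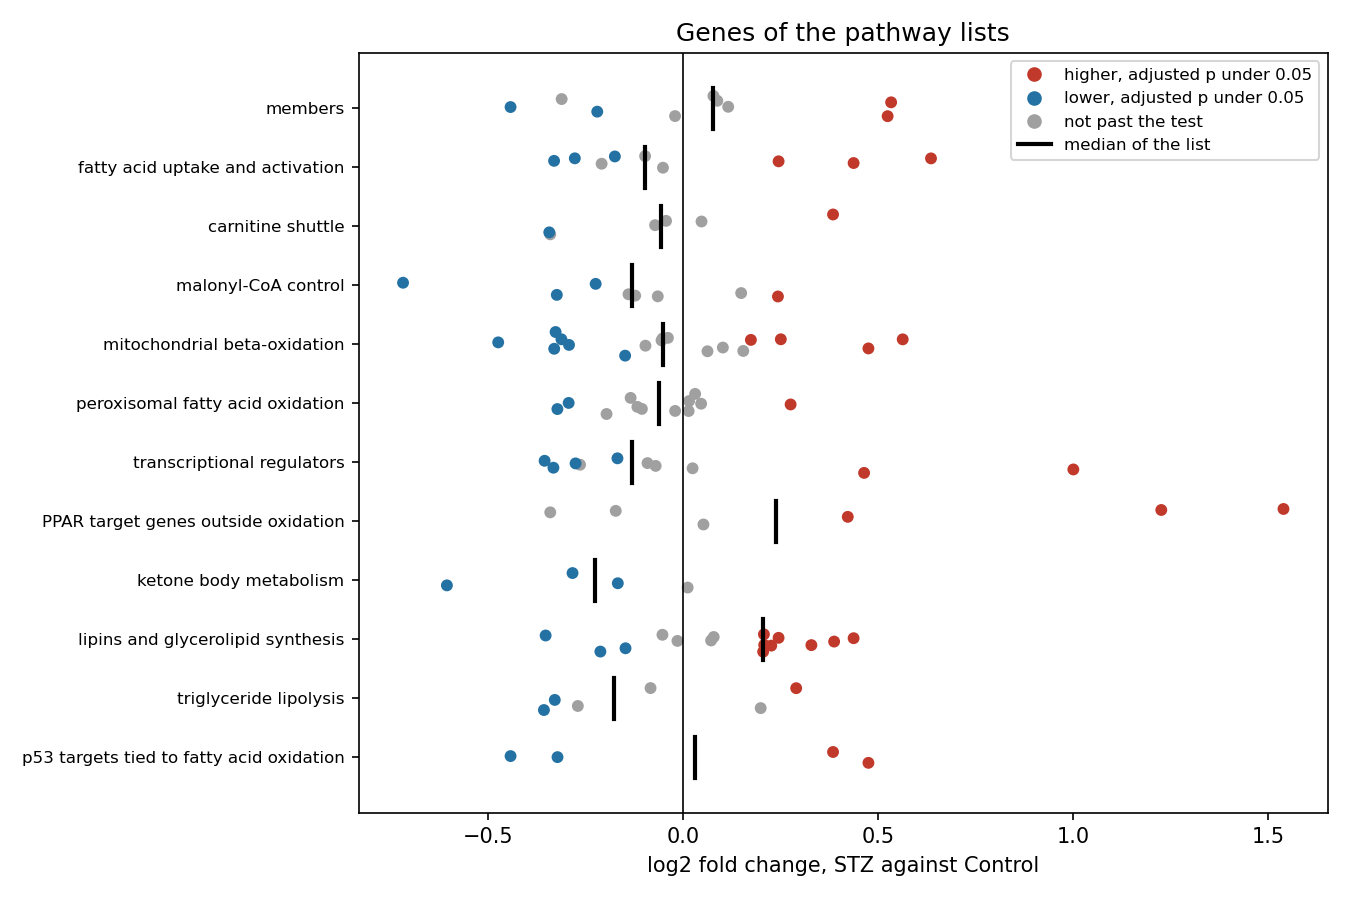
Log2 fold change of STZ against Control (horizontal axis) of every tested gene of the 9 members and the 11 other lists, with colour for the outcome of the edgeR test and a black bar at each list's median. Most lists hold genes on both sides of 0, and their medians lie between -0.23 and 0.24.

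Before the carnitine gate, fatty acids are taken up and activated. Of 9 tested genes of uptake and activation, 3 rose, 3 fell and 3 did not pass, so that 66.7% passed against 50.9% of all genes, with a median of -0.10. The long-chain acyl-CoA synthetases were split, and Acsl1 among them did not pass the test (edgeR adjusted p = 0.544). Acsl5, which is found at mitochondria and the endoplasmic reticulum, rose from a mean of 120 ± 3.55 to 162 ± 4.10 CPM (SD, n = 3 each), a log2 fold change of 0.44 (edgeR adjusted p = 2.1e-11). Acsl3, a synthetase of lipid droplets, fell with a log2 fold change of -0.28 (edgeR adjusted p = 9.67e-08), and Acsl4, which prefers arachidonic acid, fell with -0.33 (edgeR adjusted p = 2.16e-07).

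Of the 6 other tested genes of the carnitine shuttle, 1 rose, 1 fell and 4 did not pass, so that 33.3% passed against 50.9% of all genes. Cpt1c, the brain-type isoform related to Cpt1a, rose from a low level, 9.72 to 12.7 CPM on average, with a log2 fold change of 0.38 (edgeR adjusted p = 0.00602). Without STZ replicate 1 the log2 fold change of Cpt1c was 0.31 and no longer passed (edgeR adjusted p = 0.0521, the highest of its alternatives). Tmlhe, the first enzyme of carnitine synthesis, fell with -0.34 (edgeR adjusted p = 4.92e-04). Slc25a20, the carrier that exchanges acylcarnitine for carnitine across the inner membrane, was at 72.2, 72.2 and 71.5 CPM in Control and 70.8, 77.9 and 74.6 CPM in STZ. Its groups overlapped, and its log2 fold change was 0.05 (edgeR adjusted p = 0.468; 0.017 to 0.085 with each sample left out). Crat, Slc22a5 and the muscle isoform Cpt1b likewise did not pass, with log2 fold changes of -0.07, -0.04 and -0.34, and with each sample left out that of Crat ranged from -0.10 to -0.043 and that of Slc22a5 from -0.0882 to 0.00215.

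Malonyl-CoA, the inhibitor of the enzyme that Cpt1a encodes, is made by acetyl-CoA carboxylase and removed by malonyl-CoA decarboxylase. Of 8 tested genes of malonyl-CoA control, 1 rose, 3 fell and 4 did not pass, so that 50% passed against 50.9% of all genes. Acaca, the carboxylase gene, which also starts fatty acid synthesis, was at 173, 169 and 178 CPM in Control and at 99.7, 109.9 and 106 CPM in STZ. The groups were far apart. Acaca fell with a log2 fold change of -0.72 (edgeR adjusted p = 1.33e-17), the largest fall in these lists. Mlycd, the decarboxylase gene, named after its values were seen, rose with 0.24 (edgeR adjusted p = 0.0067). Of the AMP-activated kinase, which phosphorylates the carboxylase, the subunit gene Prkag2 fell with -0.32 (edgeR adjusted p = 6.65e-04) and the catalytic subunit gene Prkaa1 had -0.07 (edgeR adjusted p = 0.357; -0.11 to -0.0094 with each sample left out). The other tested subunit genes of this kinase did not pass. Stk11, which encodes the upstream kinase LKB1, fell with -0.22 (edgeR adjusted p = 4.97e-04).

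Among the 17 other genes of mitochondrial beta-oxidation, all tested, 4 rose, 6 fell and 7 did not pass, so that 58.8% passed against 50.9% of all genes, with a median of -0.05. Echs1, the hydratase for short chains, was at 85.9, 88.0 and 85.0 CPM in Control and at 65.9, 57.9 and 62.1 CPM in STZ. All its STZ samples were below all Control samples, and Echs1 fell with a log2 fold change of -0.47 (edgeR adjusted p = 3.78e-10). Within each sample the log2 ratio of Hadha, which carries the long-chain hydratase, to Echs1 was 0.90, 0.90 and 0.82 in Control and 1.36, 1.54 and 1.43 in STZ, a ratio chosen after the values were seen and given with no test. Etfdh, which passes electrons from the dehydrogenases to ubiquinone, fell with -0.29 (edgeR adjusted p = 8.98e-06), and Etfa, a subunit of the electron carrier before it, had -0.06 (edgeR adjusted p = 0.316). Acad8, a dehydrogenase of valine breakdown, rose with 0.56 (edgeR adjusted p = 1.01e-07) and Acad10 rose with 0.17 (edgeR adjusted p = 9.62e-05). Decr1, needed for unsaturated chains, had 0.06 (0.0096 to 0.11 with each sample left out) and did not pass (edgeR adjusted p = 0.293).

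**Figure D4:**
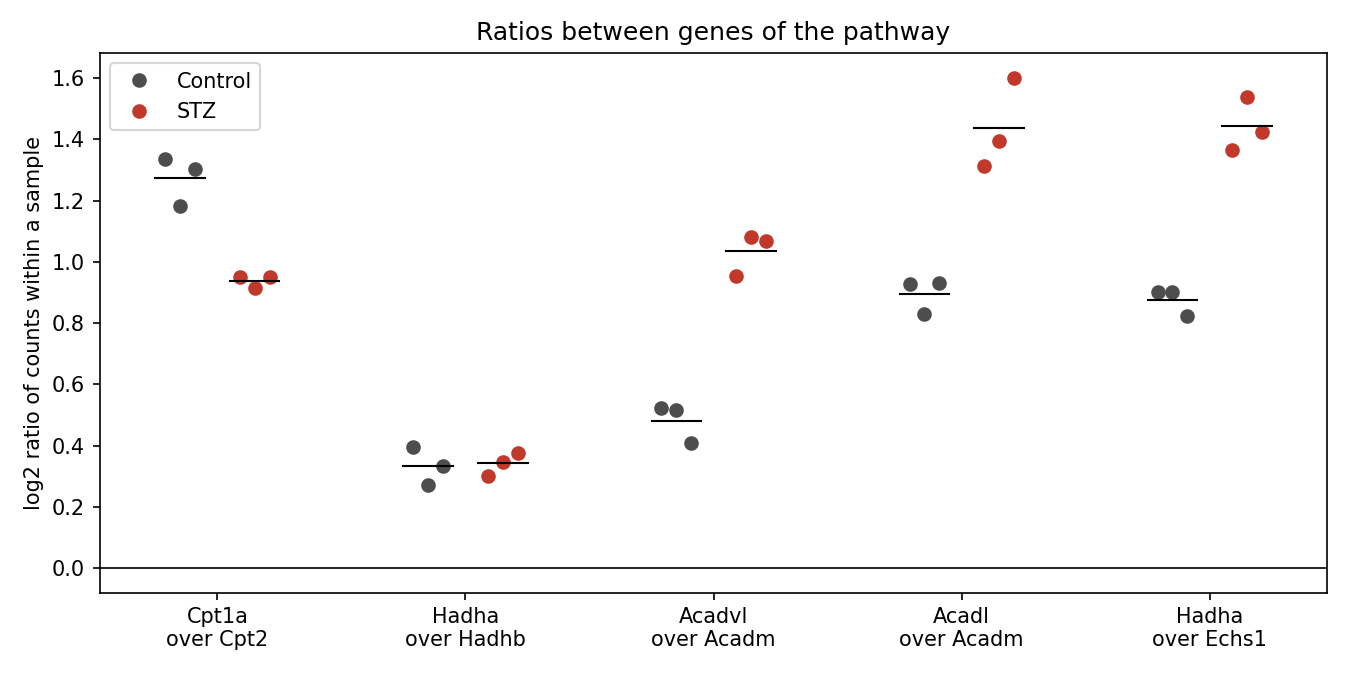
Log2 ratio of the counts of 2 genes within a sample (vertical axis) in 3 Control and 3 STZ samples, with a line at each group mean. The ratios to Acadm and to Echs1 are higher in all STZ samples, that of Cpt1a to Cpt2 is lower in all STZ samples, and that of Hadha to Hadhb overlaps.

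Peroxisomes shorten very long and branched chains by a parallel route. Of its 12 tested genes, 1 rose, 2 fell and 9 did not pass, so that 25% passed against 50.9% of all genes. Scp2, which encodes a sterol carrier and a thiolase, rose with a log2 fold change of 0.28 (edgeR adjusted p = 5.41e-07). Crot, which makes carnitine esters of shortened chains, fell with -0.29 (edgeR adjusted p = 3.43e-04), and Acaa1a, a thiolase with a closely related paralog whose reads may not be fully separable, fell with -0.32 (edgeR adjusted p = 1.58e-04).

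Of 10 tested regulators that work beside Ppara, 2 were higher, 4 lower and 4 not past the test, where 25.9% of all genes were higher and 25.1% lower. Ppard, the related receptor PPAR delta, was at 36.0, 31.7 and 36.8 CPM in Control and at 47.2, 50.6 and 47.0 CPM in STZ. All STZ samples were above all Control samples, and Ppard rose with a log2 fold change of 0.46 (edgeR adjusted p = 1.08e-07). Rxrb, a partner receptor of the PPARs, fell with -0.36 (edgeR adjusted p = 2.91e-06), and Nr2f2, a receptor that binds similar elements, fell with -0.28 (edgeR adjusted p = 7.52e-06). Esrra, an estrogen-related receptor that activates oxidative genes, rose with 1.001 (edgeR adjusted p = 5.13e-04), just past the fold threshold and under it in 7 of 15 alternatives (0.878 to 1.092 over all), from a mean of 1.67 to 3.32 CPM, and its span overlaps Trmt112. Ppargc1a, the coactivator of PPAR alpha in oxidative tissue, never exceeded 1 read.

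Known PPAR targets outside oxidation were mostly low in these cells, with 6 of 13 rows tested, of which 3 were higher and 3 did not pass, where 25.9% of all genes were higher and 25.1% lower. Plin2, a lipid droplet coat protein, rose from 37.8 ± 2.17 to 50.6 ± 1.29 CPM (SD, n = 3 each), with a log2 fold change of 0.42 (edgeR adjusted p = 2.48e-07). Pdk4, the kinase that shuts pyruvate out of the citric acid cycle, was at 1.41, 1.36 and 2.03 CPM in Control and 3.49, 3.30 and 4.54 CPM in STZ. It rose with 1.23 (edgeR adjusted p = 3.72e-05), without overlap between the groups. Angptl4, an inhibitor of lipoprotein lipase, rose with 1.54 (edgeR adjusted p = 5.18e-04), from 0.527 to 1.54 CPM on average, a level worth only a few reads in Control. The 3 that did not pass went in different directions. Cpt1b went from a mean of 3.30 to 2.62 CPM (edgeR adjusted p = 0.181) and Acot2 from 8.12 to 7.23 CPM (edgeR adjusted p = 0.294). Each was lower in every STZ sample. Txnip went from 101 to 105 CPM (edgeR adjusted p = 0.358) and was higher in every STZ sample.

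Of ketone body genes only 4 were tested, and 3 of them were lower, where 25.1% of all genes were lower; so few genes do not describe a group. Bdh1, the mitochondrial hydroxybutyrate dehydrogenase, fell from 31.3 ± 0.618 to 20.7 ± 2.39 CPM (SD, n = 3 each), with a log2 fold change of -0.61 (edgeR adjusted p = 3.06e-08). Oxct1, which activates acetoacetate for use, fell with -0.17.

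Beside Lpin1, the genes of glycerolipid synthesis counted 8 higher and 3 lower of 15 tested, where 25.9% of all genes were higher and 25.1% lower, with a median log2 fold change of 0.21. No list was tested as a group. Plpp3, a lipid phosphate phosphatase, rose with 0.44 (edgeR adjusted p = 1.99e-07) and Agpat5, an acyltransferase, rose with 0.39 (edgeR adjusted p = 9.18e-07). Gpam, the mitochondrial acyltransferase that competes with Cpt1a for acyl-CoA, fell with -0.35 (edgeR adjusted p = 1.37e-05). In lipolysis, which frees fatty acids, 1 of 6 tested genes rose and 2 fell, or 50% against 50.9% of all genes. Pnpla2, the first lipase of lipid droplets, rose with 0.29 (edgeR adjusted p = 1.40e-04), while Lipa, the lysosomal lipase, fell with -0.36 (edgeR adjusted p = 1.75e-08).

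Of 4 genes known as p53 targets with a role in fatty acid oxidation, Lpin1 among them, 2 rose (Acad11 and Cpt1c) and 2 fell, where 50.9% of all genes passed the test. The call of Cpt1c is the one lost without STZ replicate 1, as given above. Acad11, a dehydrogenase of long chains, was at 9.99, 11.5 and 11.5 CPM in Control and 14.7, 16.3 and 15.01 CPM in STZ. It rose without overlap between the groups, with a log2 fold change of 0.48 (edgeR adjusted p = 2.33e-04), and its span overlaps Ackr4. Pank1, which starts coenzyme A synthesis, fell with -0.32 (edgeR adjusted p = 0.00295), as Lpin1 did.

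The genes whose pattern over the 6 samples was most like that of Acadvl, by the root mean square difference of log2 CPM from the Control mean, were Traf4 (0.0228), Sumf2 (0.0275), Cystm1 (0.0287) and Aldh4a1 (0.0296), besides a gene listed by identifier only (0.0246).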

How the data were processed

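RNA of NRK-52E cells was sequenced at a university core facility with a stranded mRNA kit. The labels and the study's methods name STAR 2.7.10a as the aligner and Rnor6 as the rat genome. Counts per gene came from featureCounts of Subread and took in only reads with a single mapped position (version, annotation and strand setting not given in the sources used here). The deposited values are raw counts, without normalization, and each row was tested as deposited. Samples were grouped by their labels.

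From these counts, edgeR 4.0.16 in R 4.3.3 filtered low genes (filterByExpr), scaled libraries (TMM) and ran the quasi-likelihood test, with Benjamini-Hochberg adjusted p-values across the 11870 genes tested. CPM were computed on TMM-scaled library sizes. Standard errors are the absolute log2 fold change over the square root of F, and 95% intervals use the t distribution. Ratios within samples were compared by exact two-sided permutation over samples, which cannot go below 0.1. The members and lists were chosen with earlier results of these data known. Genes named are the 9 members and, for each other list, the 3 with the smallest p, the 3 with the largest mean and those past both thresholds, from which the text gives a selection and some are not reported here. Mlycd, Lpin2, Lpin3, Ppargc1a and Acsl1 are named beyond this rule, after seeing the data, and markers are a selection from their own fixed lists. For likeness, the text gives the 5 nearest to the member with the smallest p. Likeness used log2(CPM + 0.5).

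Alternatives were 2 other filters, 3 other scalings, edgeR's likelihood ratio test, DESeq2 1.42.0, limma-voom (limma 3.58.1), a replicate block and each sample left out. The fit was also run on simulated counts, and the outcome is not reported here. Within each group, libraries differed beyond counting noise (chi-square per degree of freedom 1.93 to 2.69 over 10341 genes), so no library was taken as a copy of another, though this does not show separate cultures. Promoters, gene spans and the coordinates printed came from RefSeq (GRCr8). The counting used another build, and no coordinates from that build are given.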

Additional observations from a re-analysis of the deposited data

How the results depend on the processing

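Refits of the 9 members under 15 alternatives each gave 135 outcomes, of which 133 had the direction and the call reported and 2 became stronger. Acadvl, Acadl, Lpin1 and Cpt1a passed in all 15, with log2 fold changes of 0.50 to 0.56, 0.45 to 0.57, -0.49 to -0.42 and -0.25 to -0.19. The 2 stronger outcomes were Hadha and Hadhb without Control replicate 2, so the number of members higher, 2, was 2 to 4 when each sample was left out in turn, while the number lower was 2 in each refit. Genes past both thresholds numbered 400, with 585 when no filter was used and 249 when every sample had to hold at least 10 counts, a filter that tests fewer genes. The mean difference of the Hadha to Hadhb log2 ratio, 0.0088, ranged from -0.0217 to 0.0402 with each sample left out, turning negative without Control replicate 2 and without STZ replicate 3, and the cause was not tested. Library size only moved the median of all genes from -0.01 to -0.04.

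For 47 other genes whose fold changes the text gives, refitted after seeing the data, 695 of 704 outcomes had the same direction and the same adjusted p call, 8 were weaker and 1 reversed near 0. The weaker ones were Cpt1c without STZ replicate 1, Col1a1 without Control replicate 3 or STZ replicate 3, and Cdh1 in DESeq2 and without Control replicate 1 or 3 or STZ replicate 1 or 3. These calls leave out the fold threshold, which Esrra passed in 8 of 15 refits (0.878 to 1.092). The reversed log2 fold change was 0.00215, for Slc22a5 without STZ replicate 2, where Slc22a5 ranged from -0.0882 to 0.00215 with each sample left out. Angptl4 was not tested with at least 10 counts per sample. Ratios to Acadm and Echs1 were likewise chosen after seeing the data.

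Control and STZ share replicate numbers. Deviations of same-numbered samples correlated by 0.032, -0.038 and 0.105 over 10341 genes, which does not pair them, and not every sample correlated best with its own number. With the replicate block 6199 genes passed the adjusted p (6046 without) and 398 passed both thresholds. The block left 2 members higher and 2 lower and changed no call of a gene whose fold change the text gives, while pathway genes lower went from 28 to 30. Precision is limited by depth for genes such as Ppara, Cpt1b, Cdh1, Esrra, Pdk4 and Angptl4, which had few reads.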
